A study of Mus musculus with 54 samples.

Results

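The comparison described here is dapagliflozin against vehicle in nondiabetic mice with intact Sglt1, measured in late proximal tubules of the kidney. Its members are the libraries whose labels give an Sglt1 wild-type genotype without the diabetic allele and either treatment, which makes 6 dapagliflozin and 6 vehicle libraries, or 12 of the 52 libraries with expression values in the series. All genes were compared, 19068 in the table and 15424 after a filter on low values. The series holds 54 samples in 9 groups, which differ in diabetes (carried by the Akita allele of Ins2, an insulin gene), in the Sglt1 gene (wild type or knockout) and in treatment. In the 12 libraries used here, all mice were male, of the DBA strain, 14 weeks old, Ins2+/+ and Sglt1+/+. The treated mice had dapagliflozin in their food, at 10 mg/kg diet, over 2 weeks, and the others had vehicle. Each sample pooled 70 to 80 tubules that stained with the lectin LTL and not for SGLT2, cut out by laser. Whether every sample stands for an animal of its own is not in the labels, so the tests measure the spread between these samples, which may be technical in part.

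Glucose filtered by the kidney is taken back in the proximal tubule. SGLT2 (Slc5a2), a low-affinity carrier with high capacity, works in the early S1 and S2 segments, and SGLT1 (Slc5a1), of high affinity, takes up what remains in the late S3 segment. Dapagliflozin blocks SGLT2 and so passes more glucose down to S3, where SGLT1 is left to take it up. In nondiabetic animals such a drug raises glucose excretion while blood glucose changes little. The comparison therefore asks what S3 cells with working SGLT1 do when the tubule upstream is blocked and there is no diabetes.

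The libraries carried markers of S3. The S3 transporter Slc7a13, an aspartate and cystine carrier, lay between 370 and 1529 TPM in vehicle libraries and between 479 and 1106 TPM in dapagliflozin libraries (TPM is an expression level corrected for the length of the gene). The summed level of 16 S3 markers was 5999 to 15958 TPM over the 12 libraries and that of 16 markers of S1 and S2 was 1009 to 5003 TPM. All 16 markers of S1 and S2 were above 0 in every library, and which segment that RNA came from was not tested. Slc5a1 lay between 27.3 and 93.5 TPM, against at most 1.34 TPM in any Sglt1 knockout library of the series. Vehicle replicates 1 and 2 stood apart: their mean log2(TPM + 1) over the markers of cells other than proximal tubule was 4.25 and 4.29, while the other 10 libraries lay between 3.05 and 3.82. Values that turned or moved strongly without these 2 libraries are also given in that setting. Slc7a13 went from a log2 difference of 0.01 to -0.43 there. The deposited TPM of a library do not sum to a fixed total. In units of 1000000 TPM, the sum was 1.85 ± 0.20 in dapagliflozin and 1.42 ± 0.32 in vehicle libraries (SD, n = 6 each). That difference had a 2-sided exact permutation p of 0.026, or 0.104 when adjusted over 4 library measures, and an adjusted p of 0.00866 without vehicle replicate 5. The number of genes with a value (17613 ± 371 and 17670 ± 782), the share of mitochondrial ribosomal RNA (38.5 ± 7.09% and 33.4 ± 6.57%) and Slc5a2 had adjusted exact permutation p-values of 0.885, 0.45 and 0.586. The smallest p that 6 against 6 allows is 0.00216. How many reads each library holds is unknown. Library numbers ran from 54 to 84 in vehicle and from 10 to 72 in dapagliflozin libraries, so they went partly with treatment. What these numbers stand for is not in the labels.

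Dapagliflozin changed 1 gene past the threshold, an adjusted p under 0.05 in limma, and that gene was higher. This is 0.00648% of the 15424 genes tested. At an unadjusted p under 0.05 there were 653 higher genes (4.23%) and 432 lower genes (2.8%). In 22 genes all 6 dapagliflozin libraries lay above all 6 vehicle libraries (0.143%), and in 9 genes all lay below (0.0584%). For a gene with no difference, random order separates 6 from 6 libraries, in either direction, with a probability of 0.00216. Over 15424 genes a lack of overlap is therefore not rare, and by itself it sets no gene apart. The median log2 difference over all tested genes was 0.03, and the median standard error of a gene was 0.25. A difference of that size in a single gene was not detectable with these libraries.

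**Figure D1:**
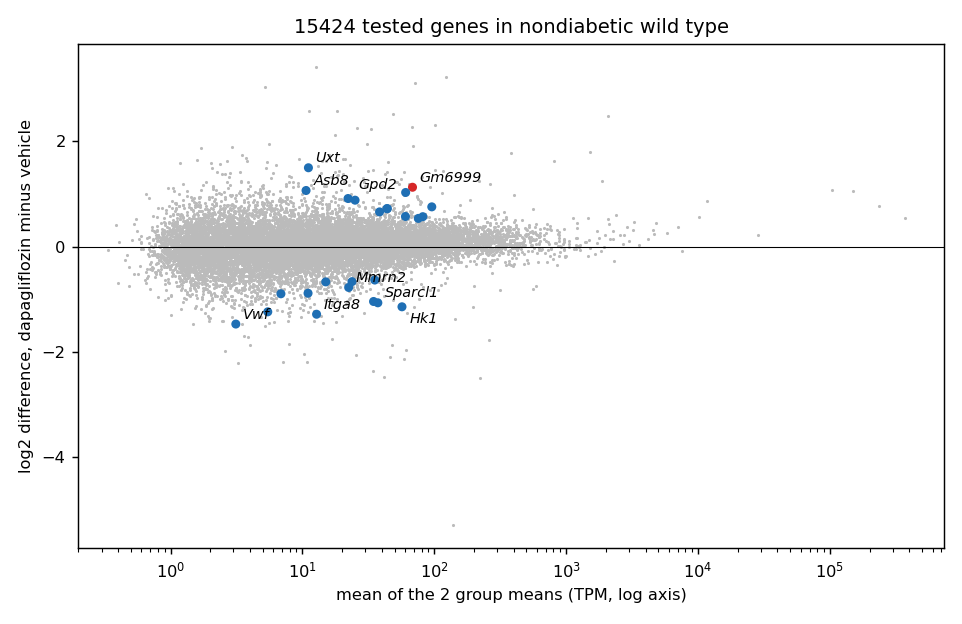
Log2 difference between dapagliflozin and vehicle (vertical axis, log2(TPM + 1) scale) against the mean level (horizontal log axis, TPM) for 15424 genes in nondiabetic wild type. The red point is Gm6999, the gene that passed; the blue points are the 12 higher and 12 lower named genes that did not pass, between a log2 difference of 1.496 (Uxt) and -1.47 (Vwf).

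The gene that rose was Gm6999 (ENSMUSG00000097927), a long intergenic noncoding RNA of unknown role on chromosome 14, chr14:79836712-80006326, plus strand, in GRCm38. Its vehicle levels were 76.1, 38.6, 34, 29.2, 37.6 and 42.7 TPM, and its dapagliflozin levels were 119, 106, 75.4, 114, 53.9 and 93.8 TPM. The mean went from 43 ± 16.8 to 93.7 ± 25 TPM (SD, n = 6 each), a log2 difference of 1.13 (SE 0.19, limma adjusted p 0.00397). All 6 treated libraries exceeded the vehicle median, yet the groups overlapped, since vehicle replicate 1 was above 2 of the treated libraries. Without vehicle replicates 1 and 2 the difference was 1.32. The call did not hold with weights per library (log2 1.04, adjusted p 0.101), with mitochondrially encoded genes left out and the rest rescaled (0.84, adjusted p 0.23) or in a fit of the 12 libraries alone (1.13, adjusted p 0.605).

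The annotated span of Gm6999 overlaps other genes, and reads in the shared parts cannot be assigned with certainty. On the same strand it reaches into Olfm4, which encodes the secreted glycoprotein olfactomedin 4 (chr14:79984081-80023139), and encloses the noncoding Gm49542 (chr14:79898467-79907230). Olfm4 was at 37.6 ± 12.5 TPM in vehicle and 53.8 ± 7.39 TPM in dapagliflozin libraries (log2 0.57, SE 0.25, adjusted p 0.671). Gm49542 was at 18.5 ± 3.09 and 27 ± 6.34 TPM (log2 0.50, SE 0.18, adjusted p 0.574). All 6 treated libraries exceeded the vehicle median for Gm49542 and 5 of 6 did for Olfm4, and neither gene passed. The sequence around the first of 3 RefSeq starts of Gm6999, chr14:79890722-79891021 on the plus strand of GRCm38, is shown to place the transcript, with the 50 bases from the start onward in capitals.
Gm6999: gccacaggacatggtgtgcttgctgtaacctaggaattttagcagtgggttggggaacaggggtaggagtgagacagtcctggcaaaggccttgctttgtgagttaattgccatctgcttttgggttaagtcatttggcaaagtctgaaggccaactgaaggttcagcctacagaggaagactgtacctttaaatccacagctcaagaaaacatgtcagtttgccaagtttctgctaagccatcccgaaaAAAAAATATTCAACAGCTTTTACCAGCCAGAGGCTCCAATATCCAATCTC

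In the other 3 pairs of groups, which share no library with this comparison, dapagliflozin left Gm6999 at log2 differences of -0.22 in nondiabetic knockout, 0.00 in Akita wild type and -0.09 in Akita knockout (adjusted p at least 0.99 in each). The drug difference in nondiabetic wild type minus that in nondiabetic knockout was 1.35 (SE 0.27, adjusted p 0.051), and minus that in Akita wild type it was 1.13 (SE 0.27, adjusted p 0.525). Of the 9 group means of Gm6999, nondiabetic wild-type vehicle was the lowest and nondiabetic wild-type dapagliflozin the highest, and the other 7 lay between 51.9 and 82.1 TPM.

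The genes with the smallest p-values that did not pass are given as values. They are 12 higher and 12 lower genes, and no shared role was tested for either set. Gpd2, the mitochondrial glycerol-3-phosphate dehydrogenase that carries reducing equivalents from the cytosol into the respiratory chain (chr2:57237635-57370719), had vehicle levels of 20.9 to 53 TPM (median 42.2) and dapagliflozin levels of 47 to 104 TPM (median 81.2). All 6 treated libraries exceeded the vehicle median, and the treated replicate 4, the lowest, lay inside the vehicle range. The log2 difference of Gpd2 was 1.03 (SE 0.24, adjusted p 0.238), and 0.76 without vehicle replicates 1 and 2. Asb8, an adaptor of a ubiquitin ligase (chr15:98134637-98165625), had 3.49 to 11.3 TPM (median 6.48) in vehicle and 12 to 19.1 TPM (median 13.3) in dapagliflozin libraries. The 2 groups of Asb8 did not overlap (log2 1.06, SE 0.24, adjusted p 0.231). Mdm2, the ubiquitin ligase that degrades p53 and is itself induced by p53 (chr10:117688875-117710758), had 43.5 to 53.1 TPM (median 46.7) in vehicle and 46.4 to 102 TPM (median 76) in dapagliflozin libraries. Of the treated libraries 5 exceeded the whole vehicle range and 1 lay within it (log2 0.57, SE 0.15, adjusted p 0.394).

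Groups that did not overlap were also seen for Uxt, a prefoldin-like chaperone protein (2.54 to 7.28 against 11.6 to 29.2 TPM, vehicle first), for Ctdsp1, a small phosphatase of RNA polymerase II (43.3 to 92.9 against 106 to 138 TPM), and for Cep44, a centriole protein (24.1 to 35.9 against 38 to 60.6 TPM). Their log2 differences were 1.496, 0.75 and 0.66, with adjusted p-values of 0.394, 0.346 and 0.547. The remaining higher genes overlapped between groups. They were Zfand1, Akirin1, Pnrc2, the kidney zinc-finger gene Zfp354a, the mitochondrial NAD carrier gene Slc25a51 and the RNA exonuclease gene Rexo4, at log2 differences from 0.53 to 0.91.

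**Figure D2:**
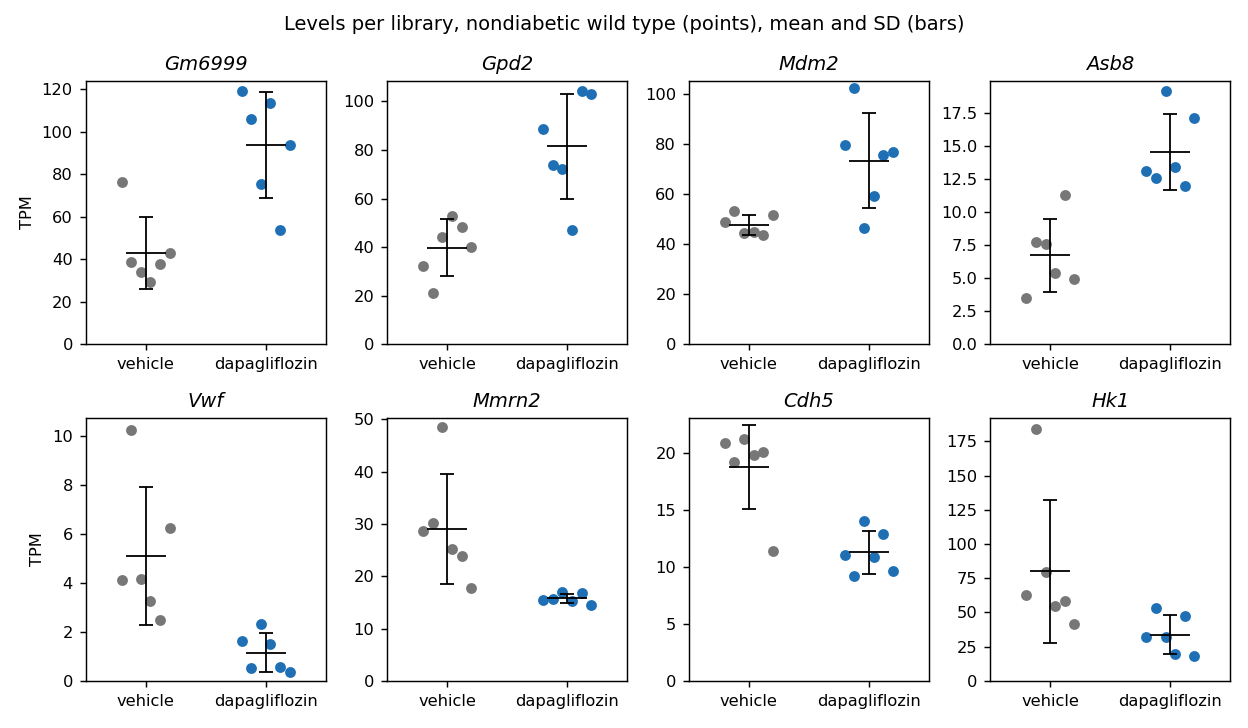
TPM (vertical axes, from 0) of 8 genes in each of the 6 vehicle (grey) and 6 dapagliflozin (blue) libraries, with the mean and SD as bars. Gm6999 overlaps between groups through vehicle replicate 1 at 76.1 TPM; Asb8, Vwf and Mmrn2 do not overlap; Cdh5 overlaps through vehicle replicate 6 at 11.4 TPM.

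Of the 12 lower genes, Vwf, Mmrn2 and Cdh5 encode endothelial proteins and are described first. Vwf, the von Willebrand factor of endothelium (chr6:125546774-125686679), had 2.5 to 10.3 TPM (median 4.14) in vehicle and 0.346 to 2.35 TPM (median 1.04) in dapagliflozin libraries. All treated libraries lay below all vehicle libraries (log2 -1.47, SE 0.32, adjusted p 0.23). Mmrn2, a matrix glycoprotein of endothelium (chr14:34375465-34404287), had 17.9 to 48.6 TPM (median 26.9) in vehicle and 14.6 to 16.9 TPM (median 15.6) in dapagliflozin libraries, again with no overlap (log2 -0.78, SE 0.18, adjusted p 0.231). Cdh5, the endothelial cadherin, had 11.4 to 21.2 TPM (median 20) and 9.22 to 14 TPM (median 11), overlapping only through vehicle replicate 6 (log2 -0.67, SE 0.18, adjusted p 0.394). Without vehicle replicate 6, Mmrn2 and the annexin gene Anxa6 passed (both adjusted p 0.043, log2 -0.90 and -0.88), and 4 genes passed in all. With other single libraries left out, the limma adjusted p rose to as much as 0.673 for Mmrn2 and 0.777 for Anxa6. Their log2 differences shrank to as little as -0.62 and -0.54.

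Itga8, an integrin subunit of mesangial and smooth muscle cells, was at 18.6 ± 5.28 TPM in vehicle and 7.04 ± 2.45 TPM in dapagliflozin libraries. Sparcl1, a matricellular protein, was at 51.7 ± 34.1 and 23 ± 12.3 TPM, with its highest vehicle value, 116 TPM, in replicate 1. Hk1, the hexokinase that starts glycolysis in most cells other than the proximal tubule, had 41.2 to 184 TPM (median 60.5) in vehicle and 18.3 to 53.5 TPM (median 32) in dapagliflozin libraries (log2 -1.14, SE 0.31, adjusted p 0.394). Its highest value came from vehicle replicate 2. The other lower genes were Mitf, Mrtfa, Slc25a29, Mob3a, Anxa6 and Tinagl1, a basement membrane protein gene. Without vehicle replicates 1 and 2 all 12 higher genes stayed above 0 (log2 0.43 to 1.42) and all 12 lower genes below 0 (-1.26 to -0.40), still with none passing. The smallest of these were Anxa6 at -0.40, Tinagl1 at -0.42 and Mitf at -0.58, and Sparcl1 went from -1.07 to -0.71. All 12 higher and 12 lower genes were chosen by their difference in libraries that include the remaining ones. Their kept signs are therefore largely built in and are no independent check.

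Across the 9 groups, nondiabetic wild-type vehicle had the lowest mean of all 12 higher genes and the highest mean of 11 of the 12 lower genes. Nondiabetic wild-type dapagliflozin had the highest mean of 7 of the higher genes and the lowest mean of 8 of the lower genes. The genes were chosen for their difference from the vehicle group, so some of this is built in. Over all 15424 genes the vehicle group was the lowest of 9 in 17.1% and the highest in 9.96%, and the dapagliflozin group was the highest in 10.6% and the lowest in 10.9%. For Gpd2 the lowest of the 9 means was that of nondiabetic wild-type vehicle (39.8 ± 11.6 TPM) and the highest that of Akita wild-type vehicle (131 ± 27.9 TPM). Between them lay, among other groups, nondiabetic knockout vehicle (51.5 ± 8.77 TPM) and nondiabetic wild-type dapagliflozin (81.5 ± 21.8 TPM). Mdm2 had the same lowest and highest groups, at 47.7 ± 4.07 and 87.5 ± 12.2 TPM, with nondiabetic wild-type dapagliflozin at 73.2 ± 19 TPM. Any difference between Akita and nondiabetic vehicle mice shares its control libraries with the drug difference described here, so the 2 are not independent.

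**Figure D3:**
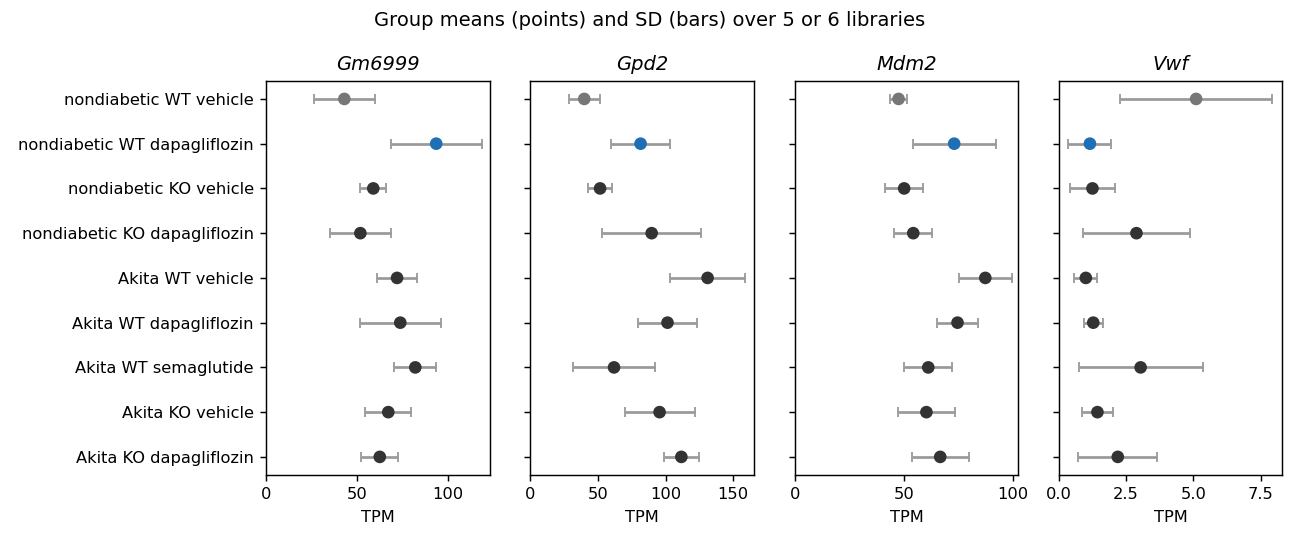
Group means (points) and SD (bars) in TPM (horizontal axes) of 4 genes in the 9 groups of the series, 5 or 6 libraries each, with nondiabetic wild-type vehicle in grey and dapagliflozin in blue. The grey point is the lowest mean for Gm6999, Gpd2 and Mdm2 and the highest, 5.1 TPM, for Vwf.

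The drug difference was tested directly against those in nondiabetic knockout and in Akita wild type, and its difference from Akita knockout was not tested. Against nondiabetic knockout, the drug difference of no gene passed in limma (0 of 15424, 0%, with 890 at an unadjusted p under 0.05). Against Akita wild type, no gene passed either (0%, with 681 unadjusted). For dapagliflozin averaged over the other 3 pairs of groups, no gene passed (0%, with 501 unadjusted). The median standard error of a gene was 0.35, 0.36 and 0.145 in these tests. Differences of that size in a single gene were not detectable. Against knockout the smallest p-values belonged to Gm6999, Vwf and AC165962.1, whose differences of 1.35, -2.23 and 2.20 each had an adjusted p of 0.051. For Vwf, the drug difference was 0.76 in nondiabetic knockout, 0.21 in Akita wild type and 0.29 in Akita knockout, against -1.47 here. Gatad2a, a subunit of the NuRD chromatin complex, was at 162 ± 15.6 TPM in vehicle and 227 ± 21.6 TPM in dapagliflozin libraries with no overlap, and its drug difference exceeded that in knockout by 0.66 (SE 0.16, adjusted p 0.415). Rexo4 differed by 0.89, Rcan2, a regulator of calcineurin, by -1.93 and Slc25a29 by -1.77, each with an adjusted p of 0.604. Leaving out single libraries of the 4 groups moved the count between 0 and 2 genes: Gm6999 passed alone without wild-type vehicle replicate 1 or wild-type dapagliflozin replicate 5, and Vwf passed with 1 other gene without wild-type vehicle replicate 5 or wild-type dapagliflozin replicate 3. Without nondiabetic knockout dapagliflozin replicate 2, Gm6999 passed alone, and without knockout dapagliflozin replicate 4 only AC165962.1 did.

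Against Akita wild type, Gpd2 differed by 1.39 (SE 0.35, adjusted p 0.525), since its drug difference was 1.03 in nondiabetic and -0.37 in Akita mice. Gpd2 was also at 0.70 in nondiabetic knockout and 0.26 in Akita knockout. Dpf3, a reader of acetylated histones in chromatin remodelling complexes, differed by 1.22 (SE 0.30, adjusted p 0.525), and Bcas3 by -0.92 (SE 0.22, adjusted p 0.525). Ppp1r14d, an inhibitor of protein phosphatase, differed by -2.66 (SE 0.57, adjusted p 0.407). It had 0 to 7.91 TPM in vehicle and 0 to 0.836 TPM in dapagliflozin libraries. Ppp1r14d was the 1 gene to pass this test without vehicle replicates 1 and 2, and it passed with Gm6999 without vehicle replicate 1 alone.

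Lists of genes by role were described by the share of members above 0 and their median log2 difference, beside the median of 0.03 and the 55.1% above 0 over all genes. There were 55 lists, 42 of pathways and 13 of cell markers, and 0 had a member that passed. For 13 lists the median stayed on the same side of the median of all genes in all 25 settings. One of these settings, leaving out mitochondrially encoded genes and rescaling, moved the median of all genes to -0.22, so the medians are best read against it.

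Targets of p53, the factor that responds to DNA damage and metabolic stress by halting growth or starting cell death, stood among the highest. Of 19 tested members 17 were above 0, with a median log2 difference of 0.41, and 6 had an unadjusted p under 0.05 on the higher side (against 4.23% of all genes) and 0 on the lower side. Besides Mdm2, Ccng1, a cyclin-like gene in the p53 feedback loop, had 20 to 54.2 TPM (median 30.5) in vehicle and 33.2 to 74.4 TPM (median 55.5) in dapagliflozin libraries. Every treated library exceeded the vehicle median of Ccng1, and the ranges overlapped (log2 0.69, SE 0.24, adjusted p 0.574; 0.44 without vehicle replicates 1 and 2). Ei24, an endoplasmic reticulum protein linked to autophagy, was at 46.6 ± 9.81 and 62.9 ± 12.7 TPM (log2 0.42), and Bax, a pore-forming cell death protein, at 17.8 ± 5.01 and 26.6 ± 8.29 TPM (log2 0.54). Cdkn1a, the p53-induced inhibitor of cyclin-dependent kinases, was low in both groups (0.87 ± 0.722 and 1.36 ± 1.11 TPM, log2 0.32). Bbc3 and Btg2 were the members below 0, at -0.43 and -0.01. The list's median was 0.44 without vehicle replicates 1 and 2, and 0.15 with all genes at -0.22 after the rescaling without mitochondrial genes. In the pairs that share no library with this one, the list's median was 0.23 in nondiabetic knockout (16 of 19 above 0), -0.18 in Akita wild type (2 of 19) and -0.12 in Akita knockout (6 of 19). Averaged over its members in each library, log2(TPM + 1) was 3.08 ± 0.24 in vehicle and 3.42 ± 0.16 in dapagliflozin libraries.

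The promoters of the p53 list were searched for the 20-base p53 site, 2 half-sites with no base between them, on both strands with at most 2 mismatches outside the fixed C and G of each half-site. RefSeq promoter windows of 300 bases were available for 14 of the 19 genes, and 2 of them held a site, against 0.417% of the 10302 tested genes with a window. The list was made of p53 targets, so a larger share of sites is built in and says nothing about the drug. The windows are shown for Ccng1 (chr11:40755237-40755536, minus strand) and for Cdkn1a (chr17:29090729-29091028, plus strand), both in GRCm38, because they are the list's members with a match. The site is in capitals and starts at position -195 in Ccng1 and -51 in Cdkn1a, with 1 mismatch each. These positions are relative to the RefSeq start of the window shown. The 14 genes had 21 windows, so that start need not be the main start of a gene.
Ccng1: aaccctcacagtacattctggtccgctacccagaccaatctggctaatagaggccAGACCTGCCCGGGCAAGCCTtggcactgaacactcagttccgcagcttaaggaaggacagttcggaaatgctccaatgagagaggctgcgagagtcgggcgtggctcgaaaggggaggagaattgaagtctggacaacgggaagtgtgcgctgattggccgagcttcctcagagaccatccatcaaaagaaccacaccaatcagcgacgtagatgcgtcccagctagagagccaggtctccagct
Cdkn1a: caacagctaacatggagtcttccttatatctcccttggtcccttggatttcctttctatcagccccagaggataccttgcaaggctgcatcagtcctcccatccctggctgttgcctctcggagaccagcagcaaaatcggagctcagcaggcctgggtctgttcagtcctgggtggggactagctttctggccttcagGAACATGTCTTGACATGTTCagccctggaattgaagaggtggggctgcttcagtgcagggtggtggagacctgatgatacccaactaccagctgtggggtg
A match describes these letters only, and binding was not measured here.

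Genes of glucose handling did not move as 1 group. Of 12 glucose carriers 7 were above 0, with a median of 0.21, and 0 passed. The carriers' median was -0.01 without vehicle replicates 1 and 2, with 5 of 12 above 0, and so crossed to the other side of the median of all genes. Slc5a1 itself had 27.3 to 74.5 TPM (median 60.8) in vehicle and 46.3 to 93.5 TPM (median 60.5) in dapagliflozin libraries, a log2 difference of 0.27 (SE 0.20, adjusted p 0.812) that was -0.07 without vehicle replicates 1 and 2. Slc5a2, the drug's target, had 4.55 to 161 TPM (median 27.8) and 7.25 to 95.4 TPM (median 16.1), a wide spread within both groups (log2 -0.71, SE 0.86, adjusted p 0.886). The sign of Slc5a2 turned, to 0.21, without vehicle replicates 1 and 2. Slc5a10 (SGLT5), a mannose and fructose carrier of the apical membrane, had 231 to 788 TPM (median 413) and 495 to 948 TPM (median 604), at a log2 difference of 0.70 (SE 0.28, adjusted p 0.609), and 0.52 without vehicle replicates 1 and 2. Slc2a2 (GLUT2), the exit carrier of the proximal tubule, was at 16 ± 11 and 24 ± 7.1 TPM (log2 0.77, adjusted p 0.643), and at 1.22 without vehicle replicates 1 and 2. Slc2a9, the urate carrier of the same family, was at 5.08 ± 2.78 and 9.75 ± 3.18 TPM (log2 0.87, adjusted p 0.586). Slc2a1 (GLUT1) lay lower, with 12.1 to 34.3 TPM (median 21.6) in vehicle and 9.06 to 17.6 TPM (median 14.3) in dapagliflozin libraries (log2 -0.61, SE 0.19, adjusted p 0.574).

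The polyol and fructose list had the highest median, 0.44, with 8 of 9 members above 0 and 4 at an unadjusted p under 0.05 on the higher side (against 4.23% of all genes). Khk, which phosphorylates fructose, was at 346 ± 118 TPM in vehicle and 478 ± 123 TPM in dapagliflozin libraries (log2 0.50). Tkfc, a kinase of the same route, was at 270 ± 80.2 and 366 ± 106 TPM (log2 0.44). Aldh1b1, a mitochondrial aldehyde dehydrogenase, was at 12.6 ± 5.45 and 26.9 ± 10.4 TPM (log2 1.08, SE 0.36, adjusted p 0.574). Vehicle replicate 2 was the lowest library for Khk, Tkfc and Aldh1b1. Without vehicle replicates 1 and 2 the list's median was 0.24, with Khk at 0.24, Tkfc at 0.28 and Aldh1b1 at 0.70. Over the 25 settings the list's median ranged from 0.11, with the sum of TPM as covariate, to 0.54. In the other pairs it was 0.22 in nondiabetic knockout, -0.21 in Akita wild type and 0.03 in Akita knockout.

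Gluconeogenesis had 9 of 17 members above 0 and a median of 0.04. Pck1, its rate-limiting enzyme, had 866 to 2318 TPM (median 1578) in vehicle and 686 to 2929 TPM (median 1438) in dapagliflozin libraries (log2 -0.14, SE 0.31, adjusted p 0.941). G6pc, which releases free glucose, was at 38.8 ± 21 and 39.3 ± 38.2 TPM, and Fbp1 at 412 ± 131 and 432 ± 139 TPM. With a standard error of 0.31 for Pck1 and 0.49 for G6pc, a moderate change of either would not have been detected. In the setting without vehicle replicates 1 and 2, Pck1 was at -0.04, G6pc turned from -0.20 to 0.20 and Fbp1 from 0.07 to -0.16. Genes of fatty acid oxidation and PPAR alpha targets had 14 of 36 members above 0 and a median of -0.07, against 7 of 36 and -0.28 without vehicle replicates 1 and 2. With library number as a covariate, or without vehicle replicate 4, the median moved to the other side of the median of all genes. Pdk4, which shuts pyruvate out of the citric acid cycle, had a vehicle median of 5.99 TPM and a dapagliflozin median of 4.99 TPM, with the highest vehicle value at 37.8 TPM (log2 -0.62, and -0.95 without vehicle replicates 1 and 2). Txnip, a glucose-sensitive inhibitor of thioredoxin, was at 141 ± 56.1 and 101.3 ± 17 TPM (log2 -0.40, adjusted p 0.748), and at -0.08 without vehicle replicates 1 and 2.

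Among transporters of sodium and bicarbonate 17 of 26 were above 0, with a median of 0.13, against 20 of 26 and 0.26 without vehicle replicates 1 and 2. Without vehicle replicate 5 or dapagliflozin replicate 4 this median fell on the other side of the median of all genes. Slc9a3, the apical sodium-proton exchanger NHE3, had 18.4 to 123 TPM (median 29.6) in vehicle and 12.4 to 100.7 TPM (median 15.6) in dapagliflozin libraries (log2 -0.65, SE 0.41, adjusted p 0.776), and -0.03 without vehicle replicates 1 and 2. Slc4a4, the basolateral bicarbonate carrier, was at 249 ± 118 and 325 ± 238 TPM. The endocytic receptor gene Lrp2 (megalin) was at 1020.5 ± 345 and 942 ± 510 TPM. Havcr1 (KIM-1), a marker of tubule injury, had 0.484 to 16.4 TPM and 1.58 to 22 TPM, and its log2 difference was 0.86, or 0.47 without vehicle replicates 1 and 2. In the same setting Slc4a4 went from 0.29 to 0.52 and Lrp2 from -0.20 to -0.42. The injury list as a whole had 10 of 28 members above 0 with a median of -0.08.

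Cell cycle genes had 17 of 20 tested members above 0 and a median of 0.25, which was 0.21 without vehicle replicates 1 and 2. Mki67, the proliferation marker, was low but did not overlap between groups, at 0.473 to 1.91 TPM (median 1.01) in vehicle and 2.65 to 8.38 TPM (median 3.99) in dapagliflozin libraries (log2 1.39, SE 0.37, adjusted p 0.394). Top2a, a topoisomerase of dividing cells, was at 1.67 ± 1.39 and 4.03 ± 2.26 TPM, and Pcna, the replication clamp, at 14.8 ± 4.95 and 19.9 ± 7.13 TPM (log2 0.38, adjusted p 0.78). The list's median was 0.29 in nondiabetic knockout, -0.12 in Akita wild type and -0.10 in Akita knockout.

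Heat shock genes had 12 of 15 members above 0 and a median of 0.38. That median was 0.11 without vehicle replicates 1 and 2 and 0.05 with the sum of TPM as covariate. The chaperone genes Hspa1b and Hspa1a carried a very wide spread, at 26.2 ± 11.3 and 161 ± 261 TPM and at 16.2 ± 7.03 and 100.9 ± 172 TPM. Other lists above the median of all genes turned or shrank without vehicle replicates 1 and 2. NRF2 targets and glutathione genes went from 0.21 (27 of 34 above 0) to -0.04, the nuclear-encoded respiratory chain from 0.17 (48 of 58) to -0.09, cytosolic ribosomal proteins from 0.13 (59 of 65) to -0.12, and S3 markers from 0.14 (12 of 16) to -0.24. The side of these 4 medians therefore depended on 2 vehicle libraries, and not on them alone. The NRF2, respiratory chain and ribosomal medians also changed sides with the sum of TPM as covariate, to -0.09, -0.24 and -0.22. The ribosomal median did so too with mitochondrial rRNA as covariate or without dapagliflozin replicate 5. The S3 median did so without vehicle replicate 2 alone.

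**Figure D4:**
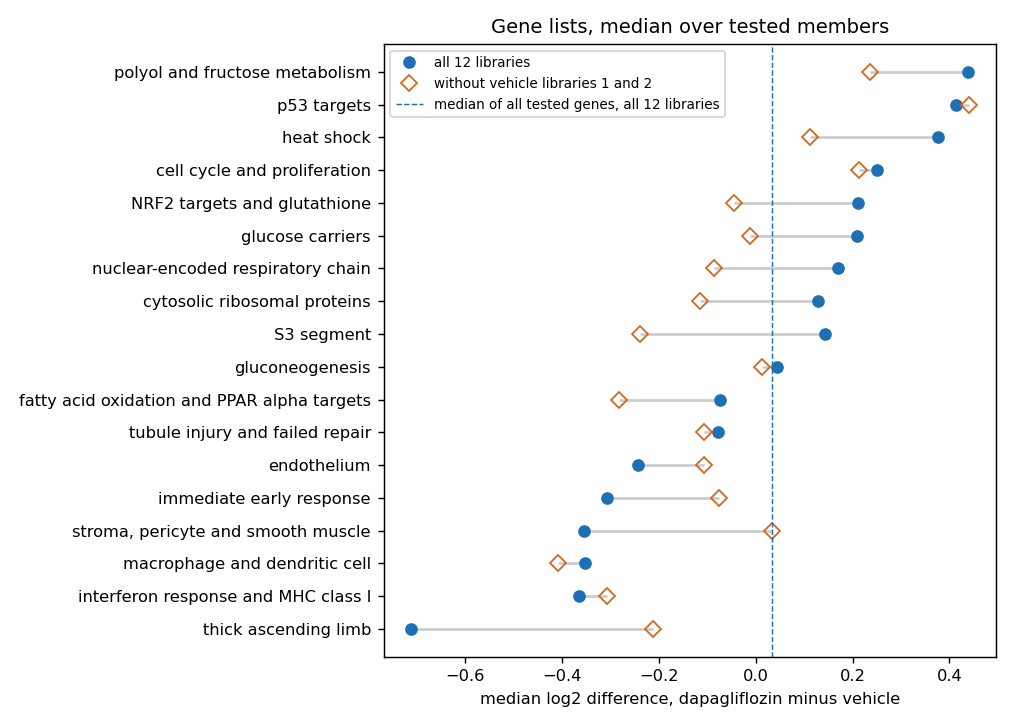
Median log2 difference (horizontal axis) of 18 gene lists with all 12 libraries (filled circles) and without vehicle replicates 1 and 2 (open diamonds); the dashed line is the median of all tested genes, 0.03. Targets of p53 stay near 0.4 and interferon genes near -0.3 in both, while the S3, respiratory chain and ribosomal lists cross the line.

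The interferon response and MHC class I list had one of the lowest medians. Of 33 members 29 were below 0, the median was -0.36, and 5 had an unadjusted p under 0.05 on the lower side (against 2.8% of all genes). Gbp4, a GTPase of the interferon response, had 5.02 to 41.5 TPM (median 11.2) in vehicle and 2.77 to 11.8 TPM (median 5.08) in dapagliflozin libraries (log2 -1.02, SE 0.36, adjusted p 0.574). Oasl2, an antiviral protein gene, was at 11 ± 3.42 and 5.95 ± 3.89 TPM (log2 -0.87), and Iigp1 at 6.68 ± 4.64 and 2.83 ± 0.657 TPM (log2 -0.85). Irf1, a transcription factor of the same response, was on the other side (log2 0.35), and the MHC gene H2-K1 was level at 145 ± 50.2 and 137 ± 19.6 TPM. Without vehicle replicates 1 and 2 the median was -0.31 with 6 of 33 above 0. In the other pairs the list's median was 0.06, -0.01 and -0.26 (nondiabetic knockout, Akita wild type, Akita knockout). Immediate early genes, which respond within minutes to handling and growth signals, had 19 of 23 members below 0 and a median of -0.31, which became -0.08 without vehicle replicates 1 and 2.

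Lists of other cell markers lay on both sides of 0. Endothelial markers were above 0 in 2 of 16 (median -0.24), stromal and smooth muscle markers in 2 of 15 (-0.35), macrophage and dendritic cell markers in 4 of 13 (-0.35) and thick ascending limb markers in 0 of 8 (-0.71). On the other side, markers of the distal convoluted and connecting tubule were above 0 in 5 of 8 (median 0.21), of principal cells in 6 of 10 (0.10) and of intercalated cells in 6 of 10 (0.22). No member of any of these lists passed. In bulk samples, fewer cells of a type and less RNA per cell cannot be told apart. The summed level of thick ascending limb markers was 587 to 4914 TPM in vehicle and 826 to 1439 TPM in dapagliflozin libraries. Umod, the main protein of that segment, had 211 to 1146 TPM (median 777) and 269 to 538 TPM (median 373), and Slc12a1, its sodium carrier, reached 1634 TPM in vehicle replicate 2 alone. Stromal markers summed to 177 to 1011 TPM and 209 to 281 TPM, endothelial markers to 302 to 589 TPM and 327 to 437 TPM, and macrophage markers to 504 to 830 TPM and 400 to 665 TPM. Distal convoluted and connecting tubule markers summed to 97.2 to 971 TPM and 141 to 789 TPM. Principal cell markers summed to 400 to 864 TPM and 269 to 716 TPM, and intercalated cell markers to 10.7 to 63.1 TPM and 6.04 to 78.1 TPM. No marker of these lists was at 0 throughout a group.

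Without vehicle replicates 1 and 2 the stromal median was 0.03, the thick ascending limb median -0.21, the endothelial median -0.11 and the macrophage median -0.41. The medians of the distal convoluted and connecting tubule, of principal cells and of intercalated cells were 0.71, 0.63 and 0.62 there. Vehicle replicates 1 and 2 were singled out by a score made of these same markers, so upward shifts in this setting are partly built in. Slc12a1 went from -0.83 to -0.19. Vwf, Mmrn2 and Cdh5 were at -1.26, -0.74 and -0.61 in that setting. Without dapagliflozin replicate 1, by contrast, the distal, principal cell and intercalated cell medians each fell below 0. With library number as covariate the distal and intercalated cell medians were also below 0. The class II invariant chain gene Cd74 of antigen-presenting cells was at 133 ± 50.6 TPM in vehicle and 80.7 ± 47.1 TPM in dapagliflozin libraries (log2 -0.83, adjusted p 0.671). The part of these cells in the lower interferon and vessel genes was not tested.

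**Figure D5:**
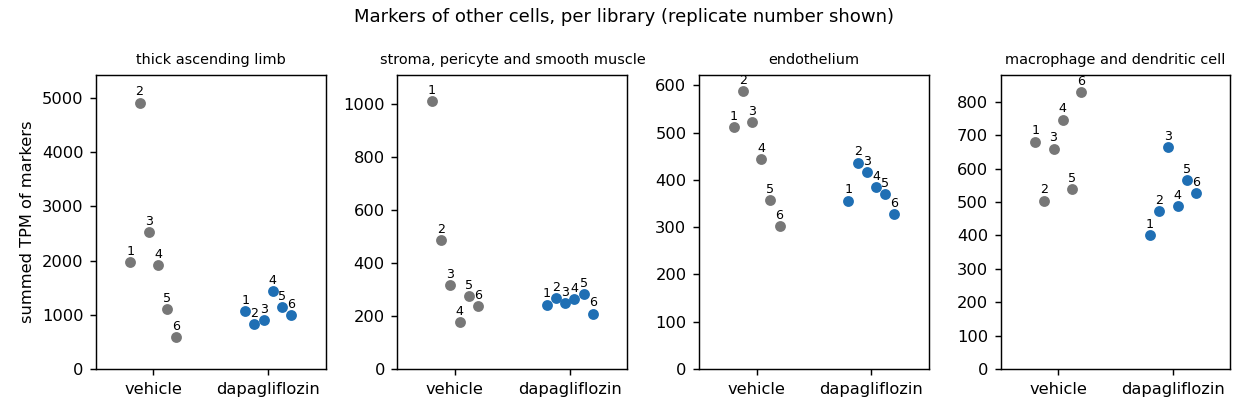
Summed TPM (vertical axes, from 0) of the markers of 4 other cell types in each vehicle (grey) and dapagliflozin (blue) library, with the replicate number beside each point. Vehicle replicate 2 is highest for the thick ascending limb (4914 TPM) and vehicle replicate 1 for stroma (1011 TPM), while macrophage markers are not highest in either of them.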

How the data were processed

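RNA of 70 to 80 laser-captured tubules per sample was extracted with a PicoPure kit and sequenced from SMARTer stranded total RNA libraries made from 0.5 ng (DV200 above 30%), per the labels. The deposited values are log10 TPM, computed by the authors on the build GRCm38, per the submitters' processing notes; for the aligner and the annotation, the sources used here give none. The 52 columns cover all 12 libraries compared. The other 2 of the 54 samples, both Akita, have no column and so were not analysed here. Values were turned back to TPM and blanks taken as 0; of 52 libraries 51 sum to over 1000000 TPM. Of 19068 genes, 19033 identifiers matched GENCODE vM21.

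Genes had to average 1 TPM or more over the libraries. Log2(TPM + 1) of the 15424 that did was fitted in limma 3.58.1 (R 4.3.3; tables read with the data.table package, version 1.17.8) with 9 group means over 52 libraries, eBayes with trend and robust settings, and Benjamini-Hochberg adjustment over all genes. Fold changes on this scale understate low genes. Library measures were compared with 2-sided exact permutation tests. The fit was tested on simulated data. Promoters came from RefSeq (GRCm38.p6). Replicate numbers follow the sample order and pair nothing.

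Named genes are those past an adjusted p of 0.05, up to 12 each way of the next smallest p with a log2 difference of at least 0.5 and a mean of at least 5 TPM in a group (without predicted genes), up to 3 per list, a set of transport and metabolism genes, and 2 each way per contrast of differences. Further list members, Olfm4, Gm49542 and AC165962.1 were named after their values were seen. Gm6999, a predicted gene, is named as the only call. Some genes under these rules are not reported here. The lists and rules were chosen with earlier results of these data known.

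Alternatives were a pseudocount of 0.1, no filter, a mean of at least 5 TPM, median-ratio rescaling, rescaling without mitochondrially encoded genes, array weights, the compared groups alone, 5 covariates (scores of other cells and of S1 and S2, library number, mitochondrial rRNA, sum of TPM), leaving out vehicle replicates 1 and 2, and each library left out.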

Additional observations from a re-analysis of the deposited data

Results flagged for a closer look

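Among 90 sets of 6 libraries (42 genes and 3 library measures in both groups), 8 held a library far from the other 5; chance gives about 1 in 20. In vehicle libraries these were Ctdsp1 at 43.3 TPM in replicate 6 (group median 71.3), Cdh5 at 11.4 TPM in replicate 6 (median 20) and Mitf at 34.5 TPM in replicate 2 (median 12.6). In dapagliflozin libraries they were Slc25a51 at 59.1 TPM in replicate 1 (median 95.3), Rexo4 at 150.6 TPM in replicate 2 (median 90.7), Pdk4 at 8.21 TPM in replicate 4 (median 4.99), Slc4a4 at 802.8 TPM in replicate 4 (median 235) and Slc5a2 at 95.4 TPM in replicate 1 (median 16.1).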

How the results depend on the processing

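The count of 1 gene became 0 without mitochondrially encoded genes (rescaled) and 0 with array weights, and ranged from 1 to 4 with single libraries left out (4 without vehicle replicate 6: Gm6999, Mmrn2, Anxa6 and Aup1). In the compared groups alone the count was 1, but the gene was Gm11632 and not Gm6999. For the drug difference in wild type minus that in nondiabetic knockout, 0 genes became 2 with the S1 and S2 score as covariate. The count was also 2 with mitochondrial rRNA and 2 with the sum of TPM as covariates. It was 1 without vehicle replicates 1 and 2, and 0 to 2 with single libraries left out. For the drug difference in wild type minus that in Akita wild type, 0 became 1 without vehicle replicates 1 and 2. It was 0 to 2 with single libraries left out. The cause was not tested. The average of the other 3 pairs stayed at 0 in every setting run. The difference in the sum of TPM (in units of 1000000 TPM), 0.425, ranged from 0.337 to 0.531 with single libraries left out and passed without vehicle replicate 5. No named gene reversed past the threshold in these settings, but few could, since only Gm6999 passed in the main fit. Below the threshold signs did turn. Without vehicle replicates 1 and 2, Slc5a2 went from -0.71 to 0.21 and Fbp1 from 0.07 to -0.16. No paired analysis was possible because the labels give the samples no replicate numbers that tie the groups together. Read depth is unknown, so counting error in low genes such as Vwf and Mki67 cannot be separated from other spread.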
